A study of Homo sapiens with 2 samples.

Results

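OTX2, ZIC2, GBX2 and SIX3 are transcription factor genes of the epiblast, of the early anterior nervous system, or of both. All 4 were at higher levels in human embryonic stem cells infected with a TFCP2L1 knockdown virus than in cells infected with a scramble virus. The 4 genes were taken by symbol from the authors' deposited table of 2005 genes, where each symbol has 1 row. They were chosen on their levels in these same 2 libraries, since all 4 were known to be listed there as higher, so their levels in this comparison are a description and no test of them was made.

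The sequenced RNA came from HES2, an established human embryonic stem cell line with no genetic change named in the labels. The control culture had received a scramble lentivirus, and the other culture a lentivirus with a short hairpin RNA (shRNA) against TFCP2L1, a CP2-family transcription factor that mouse embryonic stem cells use to stay naive. Each culture was grown for 3 passages in the same basal medium with 10% KSR, FGF2 at 10 ng/ml and Activin A at 10 ng/ml. Each group had a single library. No difference therefore has a replicate check, an effect of the shRNA and a difference between the cultures cannot be told apart, and the labels do not say whether each infected culture was a pool or a clone.

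OTX2 is a homeobox factor that the embryo needs to form forebrain and midbrain, and in mouse pluripotent cells it drives the passage from the naive to the primed state. ZIC2 is a zinc finger factor that binds enhancers in pluripotent cells and is required for the forebrain midline. GBX2 is a homeobox factor of the anterior hindbrain, which opposes OTX2 where the midbrain meets the hindbrain, and in mouse embryonic stem cells it also favours naive self-renewal. SIX3 is a homeobox factor of the forebrain and eye field that holds WNT signalling down in the most anterior neural plate.

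Promoter sequence was available in RefSeq (build GRCh38.p14) for 3 of the 4 genes, OTX2, ZIC2 and GBX2. The 250 bases before the annotated start are shown 5′ to 3′ on the gene's strand, because the 3 genes were higher together and the windows show how unlike their promoters are. These coordinates belong to that build and not to hg19, which the submitters' processing notes name. Capitals mark matches to the motifs searched.
OTX2: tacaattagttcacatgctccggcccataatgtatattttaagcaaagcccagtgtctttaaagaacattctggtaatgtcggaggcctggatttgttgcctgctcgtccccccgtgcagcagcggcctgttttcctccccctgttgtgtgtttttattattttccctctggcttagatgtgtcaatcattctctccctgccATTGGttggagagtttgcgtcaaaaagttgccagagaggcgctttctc
ZIC2: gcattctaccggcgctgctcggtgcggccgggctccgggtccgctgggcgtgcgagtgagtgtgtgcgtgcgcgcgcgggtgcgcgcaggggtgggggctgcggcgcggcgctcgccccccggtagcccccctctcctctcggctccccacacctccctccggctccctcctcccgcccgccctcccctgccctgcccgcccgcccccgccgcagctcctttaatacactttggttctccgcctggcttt
GBX2: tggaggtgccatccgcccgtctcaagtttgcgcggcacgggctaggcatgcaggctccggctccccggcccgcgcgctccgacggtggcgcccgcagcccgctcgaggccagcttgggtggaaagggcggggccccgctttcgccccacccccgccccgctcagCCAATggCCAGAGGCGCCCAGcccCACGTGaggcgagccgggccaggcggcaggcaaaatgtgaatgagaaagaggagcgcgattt

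The OTX2 window is chr14:56810480-56810729 on the minus strand, with 47.2% G and C and 7 CpG pairs. The ZIC2 window is chr13:99981534-99981783 on the plus strand, with 75.6% G and C and 31 CpG pairs. The GBX2 window is chr2:236168387-236168636 on the minus strand, with 72.0% G and C and 28 CpG pairs. Over all 35116 windows of the RefSeq table the medians were 58.0% and 11 CpG pairs. ZIC2 and GBX2 thus lay above these medians and the first OTX2 start below them. OTX2 has a second annotated start, whose window (chr14:56805668-56805917) holds 4 CpG pairs, and the deposited table does not separate transcripts of the 2 starts.

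The motifs searched, on both strands, were CCAGNNNNNNCCAG (a paired half-site of the kind TFCP2L1 binds), the OTX-type site TAATCC, the TCF/LEF-type site CTTTGA, the E-box CACGTG, the CCAAT box and the TATA box TATAAA, and they were chosen with the promoters in view. The GBX2 window held CCAGAGGCGCCCAG, a match to the first motif that starts 79 bases before the annotated start, and 3.27% of all windows hold such a match. It also held CCAAT 86 bases and CACGTG 62 bases before the start, motifs found in 32.0% and 6.34% of all windows. None of these 3 matches overlap. The first OTX2 window held CCAAT on the opposite strand, 48 bases before the start. The ZIC2 window and the second OTX2 window held no match to the 6 motifs. The OTX-type site, the TCF/LEF-type site and the TATA box, present in 5.62%, 11.2% and 10.7% of all windows, were in none of the 4 windows. These are matches of letters only, and no binding was measured in these cells.

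The targeted gene gives the check of the labels. Its level, in FPKM (reads scaled by gene length and library size), was 3.19 in the scramble library against 0.33 in the shRNA library, on 692 and 69 reads (TFCP2L1, gene ID 29842). It was 9.70-fold lower in the shRNA library, with an exact 95% interval of 7.56 to 12.6. Reads were inferred from the deposited levels and p-values, and every interval given here covers counting error only. The libraries held about 23500000 (scramble) and 22700000 (shRNA) reads. Every gene in the table has passed limits set by the authors, with a false discovery rate of at most 0.000990 and a log2 ratio of at least 1 in size, so nothing is said of genes without a row in it.

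OTX2 (gene ID 5015) had a level of 12.28 FPKM with the scramble virus and of 62.19 FPKM with the shRNA. These levels rest on about 594 and 2915 reads, with exact Poisson 95% intervals of 547 to 644 and 2810 to 3023 reads. The ratio of reads per library size, shRNA over scramble, was 5.08 (exact 95% interval 4.65 to 5.55). OTX2 was thus already expressed in the control culture. None of the 31-base words of its longest GENCODE transcript occur in a transcript of another gene.

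ZIC2 (gene ID 7546) was the most abundant of the 4 genes, with 18.67 FPKM in scramble cells and 85.46 FPKM in shRNA cells. It had about 1280 and 5672 reads, a ratio of 4.58 (interval 4.31 to 4.87). The intervals of the OTX2 and ZIC2 ratios overlap, which by itself does not show whether these ratios differ beyond counting error. Of the words of its transcript, 1.05% also occur in other genes, mainly its relatives ZIC1 and ZIC5. Together ZIC2 and OTX2 made up 98.5% of the summed level of the 4 genes in the scramble library (31.43 FPKM) and 97.1% in the shRNA library (152 FPKM).

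GBX2 (gene ID 2637) had a low level of 0.47 FPKM in scramble cells, and 4.05 FPKM in shRNA cells. Its 19 scramble reads (Poisson interval 11.4 to 29.7) and 159 shRNA reads (135 to 186) gave a ratio of 8.66 (interval 5.36 to 14.8). Its ratio interval lies above that of ZIC2 and overlaps that of OTX2, and the difference from the OTX2 ratio was not tested. The level of OTX2 was 26.1 times that of GBX2 in the scramble library and 15.4 times in the shRNA library. The level of ZIC2 was 39.7 times that of GBX2 in the scramble library and 21.1 times in the shRNA library. Of the words of the GBX2 transcript, 9.46% also occur in other genes, mainly in an antisense transcript at the same locus. Whether the authors' counting used strand is not given in the sources used here, so reads of GBX2 and of that antisense RNA may not be separated.

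SIX3 (gene ID 6496) was at the lowest deposited value, 0.01 FPKM, in scramble cells and at 0.38 FPKM in shRNA cells. No scramble reads and 21 shRNA reads were inferred, and the exact 95% Poisson interval of the former reaches 3.69 reads. Against a floor of 3 scramble reads (0.0519 FPKM) SIX3 was 7.24-fold higher in the shRNA library. That fold leaves out the counting error of the shRNA reads, and the exact interval of the ratio, which holds it, runs from 5.39 upward. SIX3 was thus detected in the shRNA library only, at a low level. The authors' deposited table gives a log2 ratio of 5.25 for it, which is taken against the 0.01 FPKM and not against a measured level.

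**Figure D1:**
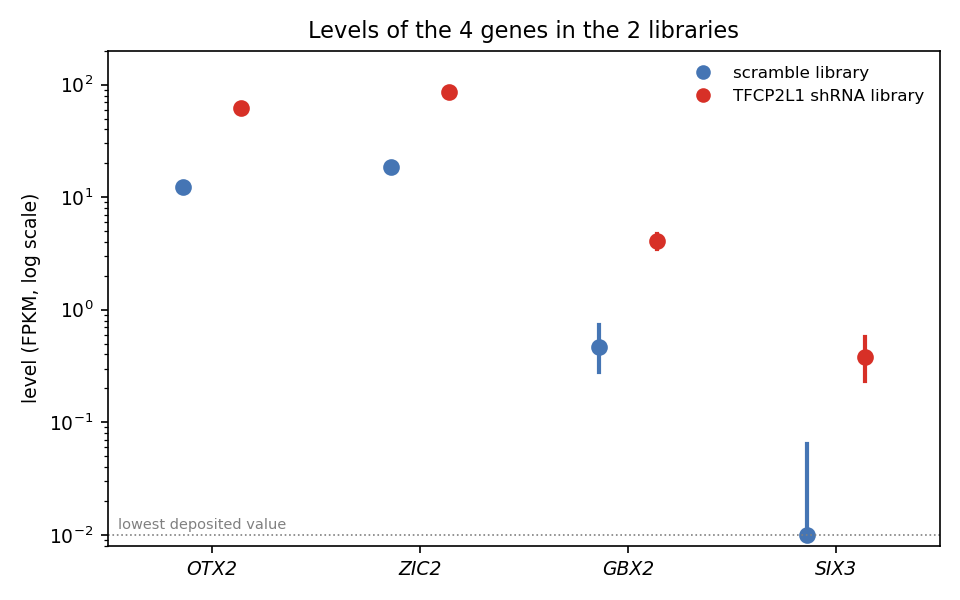
Levels in FPKM on a log axis for the 4 genes, with blue points for the scramble library, red points for the shRNA library and bars for exact Poisson 95% intervals, which cover counting error only and are drawn down to 0.01 FPKM. The bars of the 2 libraries do not overlap for any of the genes, and SIX3 lies at the lowest deposited value in the scramble library.

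The order of the levels was the same in both libraries, with ZIC2 highest, then OTX2, GBX2 and SIX3. In the shRNA library the Poisson intervals of neighbours in this order were apart, at 83.2 to 87.7 FPKM for ZIC2, 59.96 to 64.5 FPKM for OTX2, 3.44 to 4.73 FPKM for GBX2 and 0.232 to 0.574 FPKM for SIX3. In the scramble library they were apart as well, at 17.7 to 19.7 FPKM for ZIC2, 11.3 to 13.3 FPKM for OTX2, 0.282 to 0.732 FPKM for GBX2 and up to 0.0638 FPKM for SIX3. With 1 library per group, the spread of these levels between cultures is unknown.

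On the log2 scale with a pseudocount of 0.1 FPKM, the differences were 2.33 for OTX2, 2.19 for ZIC2, 2.86 for GBX2 and 2.13 for SIX3. The pseudocount pulls the values of GBX2 and SIX3 down most, and with a pseudocount of 1 FPKM they were 1.78 and 0.45. The authors' deposited table gives log2 ratios of 2.34, 2.19, 3.11 and 5.25, and false discovery rates of 0 for OTX2 and ZIC2, 5.71e-29 for GBX2 and 1.11e-06 for SIX3. These rates compare the reads of 2 libraries and not the conditions. At the size rule of at least 4-fold higher, with 1 FPKM or more in at least 1 library, 3 of the 4 genes counted, beside 15.1% of the 1587 listed genes at that level. SIX3 did not reach 1 FPKM in either library. Without the level filter all 4 counted, beside 15.2% of the 2005 listed genes. At least 2-fold higher, the same 3 of the 4 counted at the level filter, beside 51.6%. Since this contrast chose the genes, nothing is read from these shares.

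Among the 2005 listed genes, SIX3 ranked 80 by the authors' log2 ratio, GBX2 214, OTX2 335 and ZIC2 368. By level in the shRNA library the order turned round, with ZIC2 at rank 35, OTX2 at 52, GBX2 at 686 and SIX3 at 1665. In the scramble library ZIC2 was at rank 136 and OTX2 at 207.

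**Figure D2:**
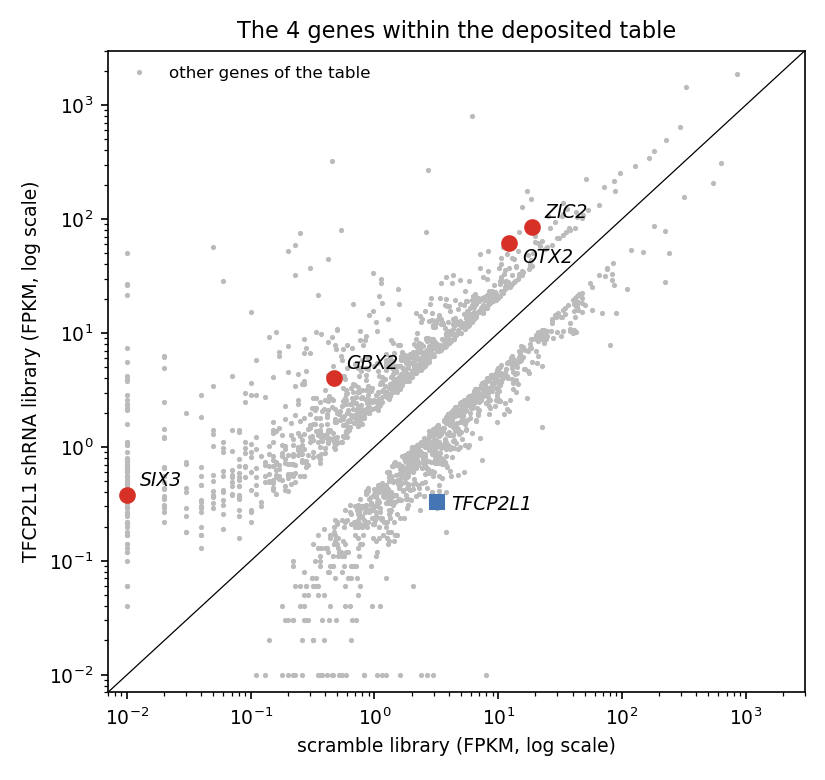
Level in the scramble library (x axis) against level in the shRNA library (y axis), both in FPKM on log axes, for every gene of the table (grey), the 4 genes (red) and TFCP2L1 (blue square), with the line of equal levels. ZIC2 and OTX2 lie among abundant genes above the line, GBX2 at 0.47 and 4.05 FPKM, and SIX3 at the left edge, where genes without scramble reads lie.

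The genes nearest to each of the 4 by their 2 levels, measured as the distance in log2(FPKM + 0.1) over the 2 libraries, are of mixed kinds. Nearest to OTX2 were PRKCDBP, at 10.85 and 57.21 FPKM (distance 0.21), and PDK1, a kinase that restrains pyruvate dehydrogenase, at 11.77 and 48.89 FPKM (distance 0.35). Nearest to ZIC2 was the small GTPase gene RHOB, at 19.84 and 71.61 FPKM (distance 0.27). Nearest to GBX2 were RHOH, at 0.42 and 4.26 FPKM (distance 0.15), and TNS4, at 0.45 and 3.63 FPKM (distance 0.16). Nearest to SIX3 were the transcription factor genes MYF6, with the same pair of deposited levels on 11 shRNA reads, and FOXI1, at 0.39 FPKM in the shRNA library, both without scramble reads. A likeness over 2 libraries rests on 2 values for each gene.

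The deposited annotation attaches terms to these genes. They were chosen as known transcription factor genes, so sharing terms for transcription factor activity and DNA binding follows from that choice. Transcription factor activity is attached to OTX2, ZIC2 and GBX2, and to 91 listed genes in all, of 1624 with any term, and of these 49 were higher and 42 lower, close to the 54.1% higher over all listed genes. DNA binding is attached to OTX2, GBX2 and SIX3, and to 61 listed genes, 36 higher and 25 lower. Ear morphogenesis is shared by OTX2 and GBX2 and attached to 15 listed genes, 10 higher and 5 lower. Sensory perception of light is shared by ZIC2 and SIX3 and attached to 26, of which 10 were higher and 16 lower.

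Of the 4 gene families, 2 further members were listed, out of 12 relatives, and both were higher. By the background of the authors' table, 5.86% of the 18489 genes they tested, a number inferred from the table, were listed as higher and 4.98% as lower. ZIC5, which lies next to ZIC2 on chromosome 13, was at 2.22 and 4.66 FPKM on 236 and 480 reads, a ratio of 2.10 (interval 1.80 to 2.47). This interval lies below that of ZIC2, and the level of ZIC2 was 8.41 times that of ZIC5 in the scramble library and 18.3 times in the shRNA library. GBX1, the paralog of GBX2, had no scramble reads and was at 0.47 FPKM on 11 shRNA reads. With the scramble count set to 3 reads the ratio is 3.79-fold. The exact interval, which keeps the scramble count at 0, runs from 2.60 upward. OTX2-AS1, GBX2-AS1 and SIX3-AS1, antisense genes, and SIX2, the neighbour of SIX3, are not among the listed genes.

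Other homeobox genes were looked for by the word in the deposited descriptions, a rule set after the table had been seen. It found 29 rows, 25 of them higher and 4 lower, or 86.2% higher beside 54.1% over all listed genes (45.9% of which were lower), with a median log2 ratio of 1.83 beside 1.01. The rows DMPK and BBC3 carry the word through a description of another gene. Without these 2 rows and without OTX2, GBX2 and SIX3, 21 of 24 were higher (median log2 ratio 1.79). The highest were LHX1, GSC and MIXL1, regulators of the organizer and primitive streak, at log2 ratios of 7.46, 6.55 and 6.58. The lower ones were LHX6 (1.93 and 0.66 FPKM), DLX4 (1.36 and 0.54 FPKM) and ALX4 (0.13 FPKM and the lowest deposited value). In the scramble library OTX2 and MEIS3 (26.09 and 82.74 FPKM) were the homeobox genes of these 27 at 10 FPKM or more. Of the words of MEIS3, 19.5% also occur in other genes. In the same library 19 of the 27 were below 1 FPKM. Of all 2005 listed genes, 744 were below 1 FPKM there. Such a low control level leaves little room to be listed as lower. The 54.1% is therefore not a background of like levels, and nothing is read from the difference.

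**Figure D3:**
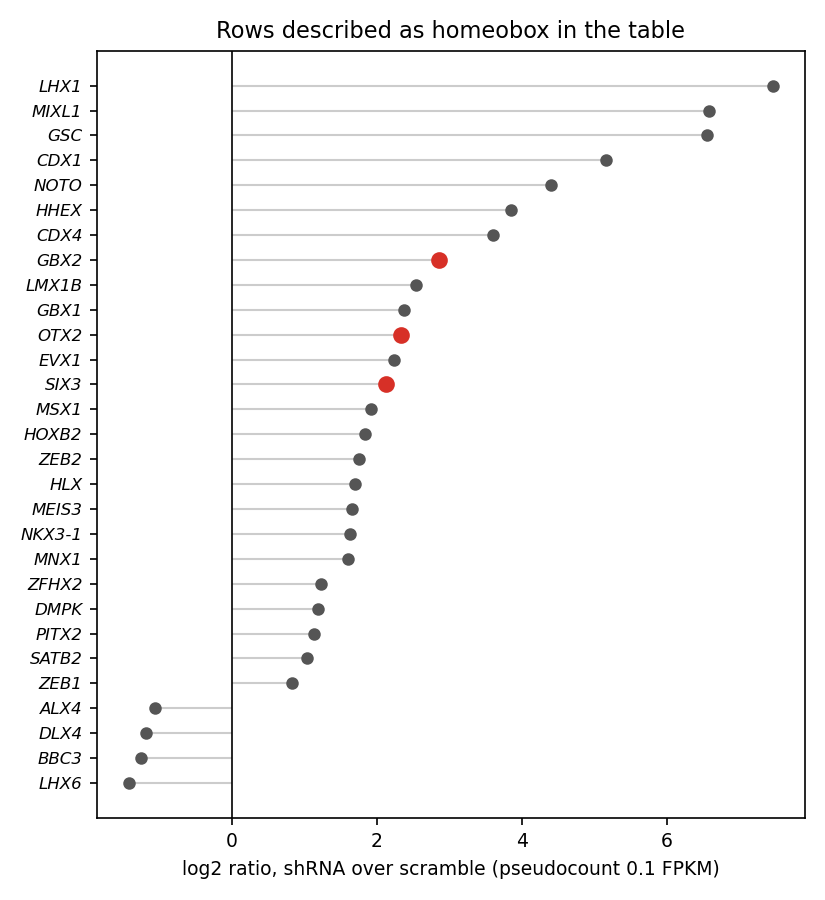
Log2 ratio of shRNA over scramble with a pseudocount of 0.1 FPKM (x axis) for the 29 rows whose deposited description holds the word homeobox, with OTX2, GBX2 and SIX3 in red. Of these rows 25 lie right of 0 and 4 left of it, and the 3 red points sit between 2.13 and 2.86.

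Genes that act with the 4 along the head-to-tail axis were followed in lists, chosen with earlier results of these data known. The counts that follow are therefore a description. Of 20 regulators of the anterior neural plate, forebrain and eye field, 2 were listed, both higher (median log2 ratio 1.93), beside 5.86% of all tested genes. SP8, a zinc finger factor of the forebrain, was at 0.48 and 1.66 FPKM, a ratio of 3.52 (interval 2.46 to 5.14). LMO3, a LIM-only cofactor, was at 0.46 and 2.58 FPKM, a ratio of 5.80 (interval 4.09 to 8.42). HESX1, LHX2, RAX, PAX6 and SOX1, defining genes of this territory, are not among the listed genes.

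Of 22 genes of the midbrain, isthmus and anterior hindbrain, 4 were listed and all 4 were higher (median log2 ratio 2.55), beside 5.86% of all tested genes. FGF8, the signal of the isthmus that OTX2 and GBX2 help to place, was at 4.88 and 29.08 FPKM, a ratio of 5.96 (interval 4.84 to 7.40), which overlaps the intervals of OTX2 and GBX2. LMX1B was at 0.17 and 1.47 FPKM and WNT3A, a ligand of the posterior streak and neural tube, at 0.45 and 2.62 FPKM. FGF17, a ligand close to FGF8, differed most, at 0.45 and 323 FPKM. EN1, EN2, PAX2, PAX5 and WNT1 are not listed.

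Of 20 posterior regulators, 4 were listed, all of them higher (median log2 ratio 4.38), beside 5.86% of all tested genes, and the other 16 are not listed. T (brachyury) was at 0.23 and 32.09 FPKM, CDX4 at 0.76 and 10.33 FPKM and HOXB2 at 0.08 and 0.54 FPKM. HOXB2 rests on only 3 scramble and 19 shRNA reads, a ratio of 6.55 (interval 1.93 to 34.6). CDX1, a caudal homeobox gene, had no scramble reads and was at 3.82 FPKM in the shRNA library. The label anterior describes what OTX2, ZIC2 and SIX3 are known for in the embryo. Beside them, 2 of the 20 anterior neural regulators and 4 of the 20 posterior ones were listed as higher.

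Genes of the formative and primed epiblast, the state in which OTX2 and ZIC2 are known to act, went in both directions. Of 20 such genes, 2 were higher and 5 lower (median log2 ratio -1.46), beside 5.86% higher and 4.98% lower over all tested genes. SOX2, the partner of POU5F1, was at 180 and 86.06 FPKM, UTF1 at 88.68 and 14.83 FPKM, PODXL at 222 and 79.09 FPKM and DPPA2 at 18.81 and 5.59 FPKM. CDH2 (N-cadherin) was higher, at 19.74 and 62.83 FPKM, and so was the WNT effector LEF1, at 0.19 and 1.02 FPKM. OTX2 and ZIC2 were thus higher in the library in which SOX2, UTF1, PODXL and DPPA2 were lower.

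Genes of the head organizer and anterior endoderm, a tissue in which OTX2 is also expressed in the embryo, were mostly higher where listed. Of 16 such genes, 10 were higher and 1 lower (median log2 ratio 6.27), beside 5.86% higher and 4.98% lower over all tested genes. FOXA2 (0.05 and 56.50 FPKM), LHX1 (0.20 and 52.76 FPKM) and CER1 (6.11 and 799 FPKM) differed most among members at 1 FPKM or more. The smaller differences were those of FZD8, a receptor of the anterior neural plate (3.21 and 13.12 FPKM, ratio 4.09, interval 3.54 to 4.74), and NODAL (22.42 and 64.39 FPKM), of whose words 41.0% also occur in another gene. The WNT inhibitor SFRP5 was lower, at 4.77 and 0.95 FPKM.

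**Figure D4:**
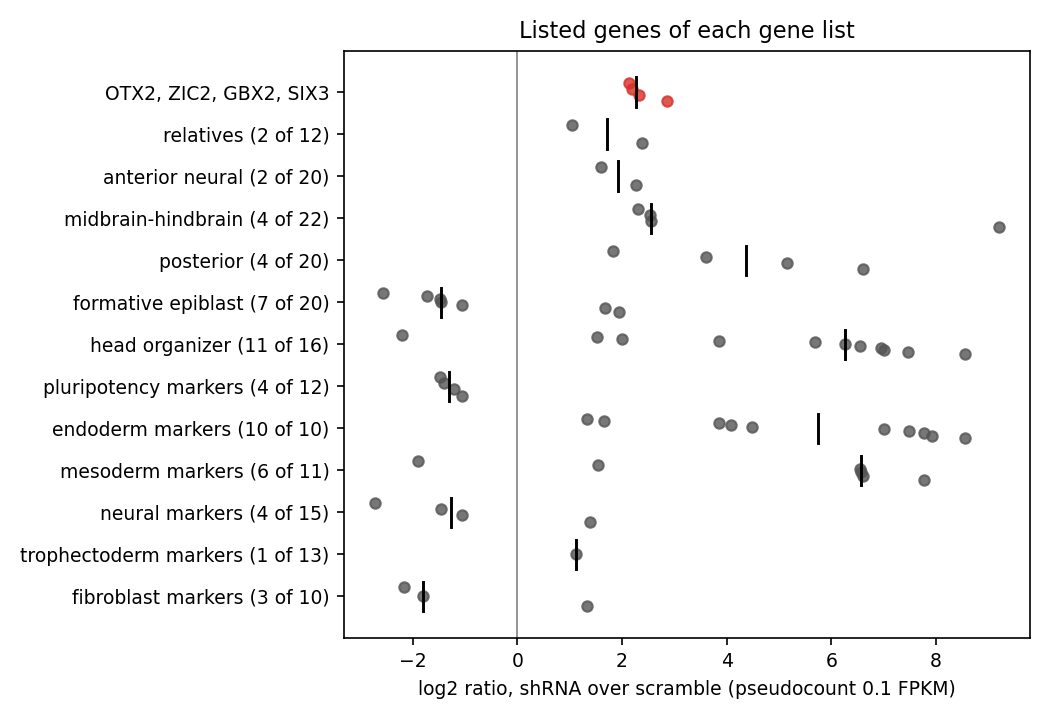
Log2 ratio of shRNA over scramble with a pseudocount of 0.1 FPKM (x axis) for each listed gene (points) of the 4 genes and of 12 gene lists (rows, with the number listed of the number in the list), and the median of each row (black bars). OTX2, ZIC2, GBX2 and SIX3 lie between 2.13 and 2.86, below most endoderm and organizer genes, and all 4 listed pluripotency markers lie left of 0.

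Listed markers of other cell types went in both directions. Their lists too were chosen with earlier results of these data known. Over all tested genes, 5.86% were listed as higher and 4.98% as lower. In these bulk libraries, more cells of a type and more RNA per cell cannot be told apart. All 10 endoderm markers were higher, with a summed level of 9.41 FPKM in scramble cells and 1036 FPKM in shRNA cells. CER1 alone had 799 FPKM in the shRNA library. The lists share genes, so their counts are not separate. CER1, FOXA2 and HHEX are also head organizer genes here, and EOMES is also a mesoderm marker. SOX2 and PODXL are in both the formative epiblast and the pluripotency lists, and SOX3 is in the formative epiblast and neural lists. T is in the posterior and mesoderm lists, and GSC is in the head organizer and mesoderm lists. SOX17 had no scramble reads and was at 26.57 FPKM in the shRNA library. Of 11 primitive streak and mesoderm markers 5 were higher and 1 lower (MESP2, 0.80 and 0.14 FPKM), with sums of 4.85 and 415 FPKM. MIXL1 alone had 267 FPKM in the shRNA library. Of 12 defining markers of human embryonic stem cells 4 were listed and all 4 were lower, with sums of 453 and 187 FPKM, while POU5F1 and NANOG are not among the listed genes. The part of these cell types in the levels of the 4 genes was not tested.

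Markers of neural progenitors and neurons did not go one way, with 1 of 15 higher (NES, 95.92 and 252 FPKM) and 3 lower. The lower ones were SOX3 (24.42 and 8.82 FPKM), the neuronal RNA binding protein gene ELAVL3 (4.18 and 0.55 FPKM) and the Notch ligand gene DLL1 (3.08 and 1.42 FPKM), and the summed level of the listed markers was 128 and 263 FPKM, mostly NES. Trophectoderm had 1 of 13 markers higher (KRT8, 293 and 640 FPKM, of whose words 35.3% also occur in other genes). Fibroblasts had 1 of 10 higher (VIM, 85.62 and 215 FPKM) and 2 lower (COL1A1, 110 and 24.40 FPKM, and S100A4, 3.72 and 0.99 FPKM), with sums of 200 and 241 FPKM. No listed marker of these 3 cell types was at the lowest deposited value in either library. Beside these counts stand the shares over all tested genes, 5.86% higher and 4.98% lower.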

How the data were processed

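Total RNA (1 ug per library) was taken with Trizol, per the labels' protocols, which name the BGISEQ-500 as sequencer. The submitters' processing notes name hg19 and Bowtie 0.12.2, and for the read counter, test, strand setting and filters nothing is given in the sources used here. The deposited table holds, made by the authors, levels read as FPKM because they scale with gene length and library size (RPKM cannot be told apart), log2 ratios, p-values and false discovery rates. Of its 2005 genes, 1084 were higher and 921 lower. The deposited floor is 0.01 FPKM.

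Whole reads were inferred (Python 3.11.15, SciPy 1.17.1) as pairs that return both levels and, under the Audic-Claverie test, the printed p-value, within 0.0002 on its natural log. A pair was found for 1515 of 1926 genes (78.7%), GBX2 and SIX3 among them. OTX2 and ZIC2, with p-values printed as 0, had reads estimated from the FPKM and a length offset of 68 bases. The step was tested on simulated data. Ratio intervals are exact Clopper-Pearson 95% intervals of the inferred reads, in which a count of 0 stayed 0. A count of 0 was set to 3 reads only for the folds given against that floor. Reads are not independent molecules. The number of genes tested is the smallest that gives whole ranks from the p-values and rates. Shared sequence was measured on the longest GENCODE 29 transcript, as the share of its 31-base words found in another gene, on either strand. No p-value was computed, with 1 library per group.

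The 4 genes and the 12 gene lists (167 genes) were chosen with earlier results of these data known. Named genes are the 4, TFCP2L1, the 2 nearest genes of each, and list members (all of up to 6 listed, otherwise the 3 highest and 3 lowest at 1 FPKM or more); other list members and the homeobox rows were named after their values were seen. An item that the rule takes is not reported here.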

Additional observations from a re-analysis of the deposited data

How the results depend on the processing

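With 1 library per group no replicate could be left out, and intervals cover counting error only. No paired analysis was possible because each group has 1 library. The direction of every result listed here was the same under every alternative run. A pseudocount of 1 FPKM in place of 0.1 gave log2 ratios of 1.78 for GBX2 and 0.45 for SIX3, 364 listed genes at least 2-fold lower (710 with 0.1) and 108 at least 4-fold higher (240). It left 2 of the 4 genes at least 4-fold higher at the level filter, OTX2 and ZIC2. With it the list medians were 0.68 (relatives), 1.07 (anterior neural), 1.84 (midbrain and hindbrain), 2.47 (posterior), 3.89 (head organizer), -1.18 (pluripotency markers), 4.25 (endoderm markers), 4.82 (mesoderm markers), -1.06 (neural markers) and -1.25 (fibroblast markers), since it shrinks the ratios of low levels. A minimum of 0.5 FPKM moved the medians of the relatives (1.04, ZIC5 alone) and the endoderm markers (7.01), by dropping low genes. With the distance taken at a pseudocount of 1 FPKM, 1 of the 2 nearest genes was shared for OTX2 and 1 for GBX2, and both for SIX3. Depth limits SIX3 and GBX1, which rest on 21 and 11 reads in all, and HOXB2, which rests on 3 scramble and 19 shRNA reads.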
